A study of Mus musculus with 40 samples.

Results

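The genes described here are Errfi1, the feedback inhibitor of the EGF receptor, and 9 other genes of the EGF receptor pathway in the mouse uterus: the receptors Egfr, Erbb2 and Erbb3, the ligands Tgfa, Hbegf and Areg, and the inhibitors Lrig1, Spry2 and Spry4. They were taken by gene name from the deposited expression table, which lists 54532 genes, and all 10 were found. Errfi1 was chosen by its measured FPKM in these same libraries, for its lower level with doxorubicin and AMH than with doxorubicin alone at 24 h, and the other 9 for their roles in the pathway. Values of that comparison are therefore given as a description only, and so are those for Errfi1 in every other comparison that uses the 24 h libraries of either group. The series measured total uterine RNA by bulk RNA sequencing in 40 libraries, 5 for each of 4 treatments at each of 2 times. Mice were prepubertal, at postnatal day 25. The treatments were doxorubicin at 3 mg/kg, a topoisomerase poison used in chemotherapy; the same dose given together with AMH (anti-Müllerian hormone) at 0.75 mg/kg; AMH alone at that dose; and vehicle, which was PBS or saline. The series design gives doxorubicin in weekly doses and harvest at 4 h or 24 h after treatment. Strain is not given in the labels, and the labels number biological replicates without stating that each is 1 mouse, so the p-values measure the spread between these libraries. The labels give the interval since treatment and not the hour of the day, and a part of the hour in differences between 24 h and 4 h was not tested.

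EGF family ligands are made as membrane-bound precursors, and proteases such as ADAM17 release them. A released ligand binds EGFR, which pairs with itself, ERBB2 or ERBB3 and signals through the RAS-ERK cascade. Errfi1, also called Mig6, is induced by the signal it ends: its protein binds the kinase domain of the ERBB receptors and blocks them. In the mouse uterus Errfi1 is known as a progesterone-induced gene that restrains oestrogen-driven growth of the epithelium, and it is also known to respond to glucocorticoids. Lrig1 is a membrane protein that favours removal of ERBB receptors, and the Sprouty genes Spry2 and Spry4 restrain RAS-ERK signalling downstream of several receptors. In the uterus, EGF family ligands are known to relay part of the growth signal of oestrogen to the epithelium.

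The stretches upstream of 3 start sites are shown because Errfi1 and Tgfa were the members whose levels did not overlap those of vehicle in a comparison that passed the test. Each gives the 250 bases before a RefSeq start site (build GRCm38.p6, forward strand, 5′ to 3′), and capitals mark a match to 1 of 6 motifs searched on both strands. RefSeq gives Errfi1 2 start sites. The first window lies at chr4:150853546-150853795, upstream of the deposited gene interval. The second lies at chr4:150854820-150855069, inside that interval. The Tgfa window lies at chr6:86194972-86195221.
Errfi1, first start: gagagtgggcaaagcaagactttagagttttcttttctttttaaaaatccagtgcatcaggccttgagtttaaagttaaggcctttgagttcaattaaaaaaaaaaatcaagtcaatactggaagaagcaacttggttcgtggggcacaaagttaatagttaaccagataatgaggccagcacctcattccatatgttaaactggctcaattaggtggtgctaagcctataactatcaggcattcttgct
Errfi1, second start: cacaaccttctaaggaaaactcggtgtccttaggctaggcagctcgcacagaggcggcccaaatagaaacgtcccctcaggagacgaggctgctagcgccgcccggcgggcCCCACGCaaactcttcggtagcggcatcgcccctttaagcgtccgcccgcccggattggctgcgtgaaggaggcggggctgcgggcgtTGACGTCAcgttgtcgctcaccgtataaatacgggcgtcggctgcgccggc
Tgfa: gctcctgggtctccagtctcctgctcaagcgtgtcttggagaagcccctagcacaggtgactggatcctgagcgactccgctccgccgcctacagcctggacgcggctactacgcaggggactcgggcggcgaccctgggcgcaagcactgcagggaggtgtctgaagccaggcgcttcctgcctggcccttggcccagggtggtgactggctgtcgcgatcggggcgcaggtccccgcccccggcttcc
The second Errfi1 window held the cAMP response element TGACGTCA, with its first base at position -51 counted from the start site, and the reverse complement CCCACGC of the EGR motif GCGTGGG at position -139. Of 32851 RefSeq windows of the same length, 1.55% held TGACGTCA and 4.3% held the EGR motif. The first Errfi1 window and the Tgfa window held none of the 6 motifs. The others searched were the glucocorticoid receptor half-site AGAACA (in 16.1% of all windows), the AP-1 site TGACTCA (4.46%), the E-box CACGTG (6.02%) and the SMAD element GGCGCC (9.59%). Windows were present for 7 of the 10 members, and among these Areg also held TGACGTCA, at position -61. A match describes letters in a window, not a bound site.

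Levels are in FPKM, fragments per kilobase of gene, and are compared between genes per deposited gene length. Libraries are on the deposited scale, which was not that of total reads and is described with the processing. Over all 40 libraries the median was 23.8 FPKM for Spry2 and for Erbb2, 22.2 FPKM for Lrig1, 18.0 FPKM for Errfi1 and 13.4 FPKM for Erbb3. It was 5.09 FPKM for Egfr, 4.60 FPKM for Hbegf, 3.99 FPKM for Spry4 and 3.87 FPKM for Tgfa, and Areg was at 0 in most libraries. Thus the 2 receptors that pair with EGFR had higher FPKM than EGFR itself. The size of this gap depends on the deposited lengths, 11326 bases for Egfr, 5210 for Erbb2 and 6016 for Erbb3. Over all libraries the reads were 48082 for Egfr, 96490 for Erbb2 and 65681 for Erbb3. A gene was tested where it reached 1 FPKM in at least 5 libraries, which 16226 genes and 9 members did; Areg reached it in 3 libraries and was left out of the tests. In the deposited annotation (build mm10) Errfi1 lies at chromosome 4, 150853919 to 150868892, with the antisense gene 1700045H11Rik inside its span. Egfr is overlapped by the antisense gene Egfros, Erbb2 by the coding gene Mien1 and Lrig1 by the coding gene Slc25a26. Whether the counting used strand is not given in the sources used here, so reads shared between such partners are uncertain.

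The libraries held 16251563 to 27391049 reads in genes. Scores of marker lists, each the mean log2 of FPKM + 1 over the list, placed 7 libraries more than 1 above the median for 12 oviduct and ciliated cell genes (doxorubicin replicates 3 and 4 and doxorubicin with AMH replicate 5 at 4 h, and doxorubicin replicates 3, 4 and 5 and doxorubicin with AMH replicate 4 at 24 h). Another 7 stood that far above it for oestrogen-responsive uterine genes (13 listed, 12 scored): vehicle replicate 1 at 4 h, and at 24 h doxorubicin replicates 1 and 4, AMH replicate 3 and vehicle replicates 1, 2 and 4. Other libraries stood that far above the median for squamous epithelium (up to +5.43, doxorubicin replicate 2 at 4 h). The same was so for adipocyte genes (up to +2.93, AMH replicate 1 at 24 h) and ovary genes (up to +2.27, doxorubicin replicate 4 at 4 h). At 24 h they included vehicle replicate 3 for squamous epithelium (+1.54) and vehicle replicate 4 for ovary (+1.16). No alternative fit left these libraries out as sets. The uterine markers were present throughout, with medians of 5.72 for epithelium, 7.27 for stroma and 7.09 for smooth muscle. In bulk tissue, fewer cells of a type and less RNA per cell cannot be told apart.

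Errfi1 was lower in uteri with AMH alone than in vehicle uteri at 24 h, 0.357-fold on the log2(FPKM + 1) scale, and the vehicle uteri at that time had the highest mean of all groups. With AMH it was 22.2, 23.1, 19.0, 14.8 and 14.6 FPKM, against 49.55, 52.0, 69.1, 38.5 and 62.9 FPKM with vehicle. Every AMH library lay below every vehicle library, a separation in this direction that 0.622% of all tested genes showed. The means were 18.7 ± 4.02 and 54.4 ± 11.9 FPKM (SD, n = 5 each), and the difference was -1.48 ± 0.21 on the log2 scale (SE; limma adjusted p = 0.00072 over all genes). Errfi1 was the 1 member of 9 called in this comparison, in which 0.462% of all genes were called. The comparison uses no library of the one that drew attention to Errfi1. Leaving out each library in turn moved the difference between -1.60 and -1.39. With only these groups in the fit the call was near the threshold (limma adjusted p = 0.049). That fit called 3 genes, against 75 in the fit over all groups.

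The AMH difference had the other sign at 4 h, when Errfi1 was 21.9, 28.7, 19.5, 18.0 and 19.97 FPKM with AMH, against 14.5, 14.0, 16.1, 17.2 and 13.9 FPKM with vehicle. The AMH libraries all lay above the vehicle libraries, as they did for 11.3% of tested genes. The difference of +0.47 ± 0.21 (log2) did not pass the test in the fit over all 8 groups (limma adjusted p = 0.11), and did pass it with only these groups in the fit (adjusted p = 0.0083). The change of the AMH difference between times was -1.96 ± 0.30 (24 h minus 4 h, log2; limma adjusted p = 0.0015), in a contrast where 0.154% of genes were called and Errfi1 was the only member among them.

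Errfi1 rose between the times in vehicle uteri. The vehicle libraries at 24 h all lay above those at 4 h (values above), a separation that 3.03% of genes showed in this direction, and the difference was +1.76 ± 0.21 (log2; 3.38-fold; limma adjusted p = 2.5e-06). Errfi1 was the 1 member of 9 called, against 7.32% of all genes. In AMH uteri the same difference was -0.20 ± 0.21 (95% interval -0.64 to 0.23; limma adjusted p = 0.56), and the ranges at 24 h and 4 h overlapped. The AMH contrast at 24 h, the time contrast in vehicle and the change of the AMH difference share the vehicle libraries at 24 h, so they are not independent of each other.

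With doxorubicin the values are a description. Errfi1 was 18.0, 16.9, 12.8, 16.7 and 15.8 FPKM with doxorubicin and AMH at 24 h, against 25.5, 46.1, 28.4, 52.6 and 60.7 FPKM with doxorubicin alone. All libraries of the combination lay below all of doxorubicin alone, and the difference was -1.29 (log2). Between 24 h and 4 h the difference was +1.29 in doxorubicin uteri, against +1.76 in vehicle uteri above, and +0.17 in combination uteri. At 24 h it was -1.68 for the combination and -0.39 for doxorubicin alone, each against vehicle at 24 h, and the doxorubicin and vehicle ranges overlapped. The combination libraries all lay below the vehicle libraries, as for 4.53% of all genes. In the contrast that chose the gene, 0.333% of genes were called at an adjusted p under 0.05 and 1.28% had all libraries of the combination lower. The combination differed from AMH alone at 24 h by -0.20, and the means of the groups with AMH were 16.0 ± 1.97 FPKM with doxorubicin and 18.7 ± 4.02 FPKM without it (SD, n = 5 each).

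At 4 h doxorubicin gave 12.8, 13.4, 29.95, 16.6 and 11.8 FPKM and the combination 9.80, 12.4, 14.3, 16.3 and 18.9 FPKM. Neither was separated from the vehicle range of 13.9 to 17.2 FPKM. The differences from vehicle were +0.07 for doxorubicin and -0.10 for the combination (limma adjusted p = 0.92 and 0.83). Of all genes, 0.493% were called for doxorubicin and 0.394% for the combination at 4 h. Over the 8 groups the means ran from 54.4 FPKM (vehicle, 24 h) and 42.6 FPKM (doxorubicin, 24 h) to 21.6 (AMH, 4 h), 18.7 (AMH, 24 h), 16.9 (doxorubicin, 4 h), 16.0 (combination, 24 h), 15.1 (vehicle, 4 h) and 14.4 FPKM (combination, 4 h). Every group overlapped in range with its neighbours in this order. Of the 24 h libraries without AMH, doxorubicin replicate 1 (25.5 FPKM) and replicate 3 (28.4 FPKM) were the lowest, and in the other 30 libraries only doxorubicin replicate 3 (29.95 FPKM) and AMH replicate 2 (28.7 FPKM), both at 4 h, lay above 25.5 FPKM.

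**Figure D1:**
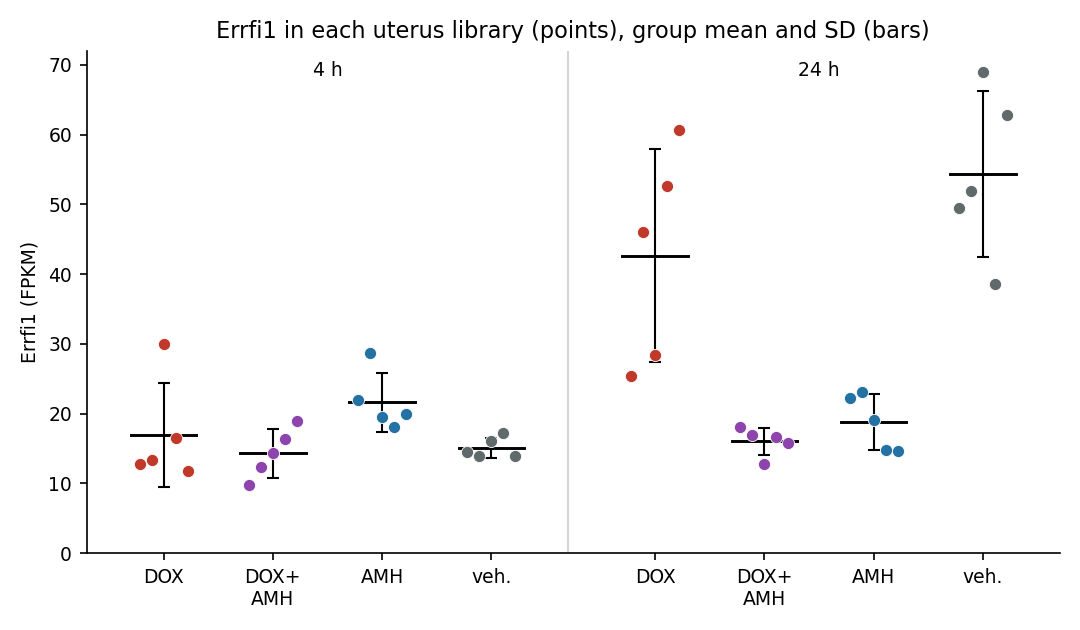
Errfi1 in FPKM (vertical axis, linear) in each of the 40 uterus libraries, by treatment at 4 h (left) and 24 h (right); points are libraries, black bars the group mean and SD, and DOX is doxorubicin. The doxorubicin and vehicle groups at 24 h average 42.6 and 54.4 FPKM, while the other 6 groups average 14.4 to 21.6 FPKM.

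Errfi1 belongs to a list of 15 glucocorticoid-responsive genes, and the other 14 were scored. The score was 2.88 to 3.34 with AMH at 24 h, against 3.21 to 3.80 with vehicle. At 4 h it was 3.27 to 3.30 with AMH, against 2.75 to 2.91 with vehicle. At 24 h it was 3.00 to 3.28 with the combination and 3.46 to 4.22 with doxorubicin alone. Of 13 tested genes of this list, 7 rose in vehicle uteri at 24 h against 4 h (list median +0.73, against 0.01 over all genes, of which 7.32% were called), among them Errfi1, Zbtb16 (+1.86) and Cebpd (+1.01). With AMH at 4 h 6 rose (list median +0.63, against 0.01 over all genes, of which 20% were called), among them Per1 (+1.07) and Tsc22d3 (+1.17). With AMH at 24 h Errfi1 was the only one called, and the list median was -0.56, against -0.01 over all genes. The 13 tested genes and these list medians include Errfi1 itself, unlike the score. The part of glucocorticoid signalling in the Errfi1 difference was not tested. Vehicle replicate 3 at 24 h had both the highest Errfi1 of all libraries (69.1 FPKM) and the highest score of its group (3.80), but the library highest in Errfi1 was also highest in the score in only 3 of 8 groups, as many as for p53 targets. Leaving out the libraries high in oestrogen-responsive genes kept only vehicle replicates 3 and 5 at 24 h, the highest of their group in Errfi1 (69.1 and 62.9 FPKM). The Errfi1 difference between AMH and vehicle at 24 h was then -1.80. Without the libraries high in oviduct genes it was -1.48, and both differences passed the test.

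**Figure D2:**
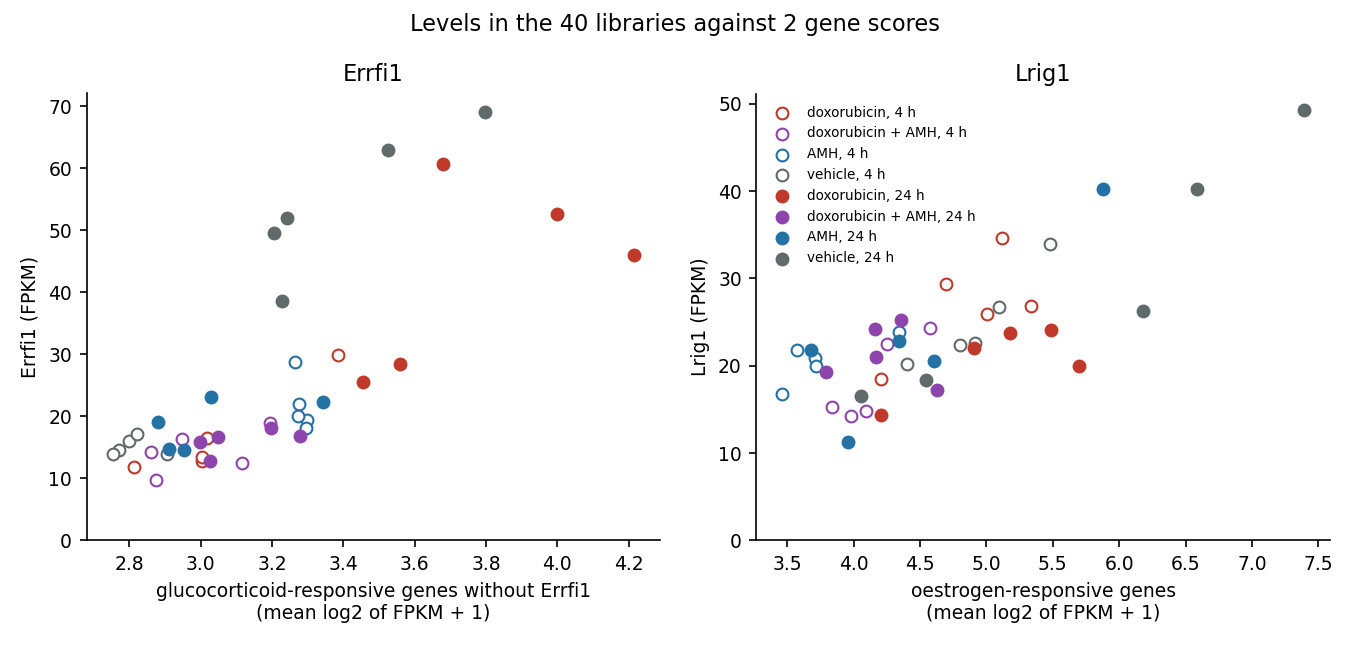
Each point is a library (open, 4 h; filled, 24 h). Left, Errfi1 (FPKM) against the mean log2 of FPKM + 1 of glucocorticoid-responsive genes without Errfi1; right, Lrig1 (FPKM) against the score of oestrogen-responsive genes. Vehicle replicate 3 at 24 h is the highest Errfi1 point, at 69.1 FPKM, and vehicle replicate 2 at 24 h is the highest Lrig1 point, at 49.3 FPKM.

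Tgfa, the ligand TGF-alpha, was higher than vehicle in 4 of the 6 comparisons of a treatment with vehicle, more often than any other tested member passed. At 24 h it was 5.20, 5.34, 5.88, 3.82 and 3.92 FPKM with doxorubicin and AMH, 3.99, 3.99, 5.50, 4.13 and 3.69 FPKM with doxorubicin, and 2.76, 3.11, 2.68, 2.19 and 2.07 FPKM with vehicle. All libraries of both doxorubicin groups lay above all vehicle libraries; 4.2% of genes did so for the combination and 1.92% for doxorubicin. The differences were +0.71 ± 0.15 for the combination (limma adjusted p = 0.0011) and +0.56 ± 0.15 for doxorubicin (adjusted p = 0.012), both against the same vehicle libraries. Tgfa was the 1 member of 8 called in each, while 34.3% of all genes were called for the combination and 18.4% for doxorubicin. Without the libraries high in oestrogen-responsive genes, which leaves 2 vehicle libraries, the differences were +0.78 and +0.67 and neither passed (adjusted p = 0.079 and 0.31). The doxorubicin difference also missed the threshold without its replicate 3 (adjusted p = 0.052) and with only these groups in the fit (0.078).

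Tgfa was also higher with AMH alone at 4 h, at 5.17, 3.62, 5.59, 5.44 and 5.11 FPKM, against 2.81, 3.30, 3.48, 3.20 and 3.21 FPKM with vehicle. These groups did not overlap either, and the difference was +0.50 ± 0.15 (limma adjusted p = 0.018). In this comparison 11.3% of all genes lay wholly above vehicle and 20% were called. The combination at 4 h gave 4.51, 3.89, 5.98, 5.30 and 8.84 FPKM, all above vehicle as for 3.86% of genes, with a difference of +0.63 ± 0.15 (adjusted p = 0.039), the only member called there; this call was lost when 8 of the 10 libraries were left out in turn. Its highest library, replicate 5, was also the one highest in oviduct genes (score 4.76, against a median of 1.97 over all libraries), and without the libraries high in these genes the difference was +0.49 (adjusted p = 0.094). With AMH alone at 24 h the difference from vehicle was +0.36 ± 0.15 (adjusted p = 0.20), and the change of the AMH difference from 4 h to 24 h was -0.14 ± 0.21 (adjusted p = 0.84). Doxorubicin at 4 h, with 2.94 to 5.76 FPKM, overlapped vehicle (+0.23, adjusted p = 0.55). Between treated groups, the combination differed from doxorubicin at 4 h by +0.40 (adjusted p = 0.71), from AMH at 4 h by +0.13 (0.74) and from AMH at 24 h by +0.35 (0.30), and none of these passed.

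Hbegf, the heparin-binding EGF-like ligand, passed no test. Its differences from vehicle lay between -0.18 (doxorubicin, 24 h) and +0.22 (combination, 4 h). Its highest libraries were all at 24 h: AMH replicate 3, with 6.47 FPKM, and vehicle replicates 1 and 2, with 7.18 and 7.73 FPKM. All 3 were among those high in oestrogen-responsive genes. The others high in these genes were not high in Hbegf. Vehicle replicate 1 at 4 h had 3.12 FPKM, the lowest of all libraries, and vehicle replicate 4 at 24 h had 3.71 FPKM. Doxorubicin replicates 4 and 1 at 24 h had 4.31 and 4.85 FPKM. The part of the oestrogen-responsive state was not tested.

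Areg, the ligand amphiregulin, was near the detection limit, with 237 reads over all 40 libraries. It had 0 reads in all 10 libraries of AMH alone, and a count of 0 allows an expected count of up to 3 reads in a library. With doxorubicin at 24 h it was 0, 0.51, 1.19, 1.08 and 0.865 FPKM, and with vehicle 0.337, 0, 0, 0.049 and 0 FPKM. The highest value, 3.01 FPKM from 72 reads, was in replicate 5 of the combination at 4 h, the library highest in oviduct genes. The other 6 libraries high in oviduct genes had 0.234 to 1.19 FPKM, against at most 0.51 FPKM in the remaining 33 libraries. The part of oviduct tissue in these values was not tested.

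The receptors differed little between groups. Egfr was 5.54, 5.97, 7.91, 5.76 and 6.26 FPKM in vehicle uteri at 24 h, against 4.44, 5.23, 5.48, 4.18 and 5.04 FPKM at 4 h. All 24 h libraries lay above all 4 h libraries, as for 3.03% of all genes, but the difference of +0.31 ± 0.11 did not pass the test (limma adjusted p = 0.073). It was +0.33 in doxorubicin uteri (adjusted p = 0.11), +0.18 with the combination (0.76) and +0.13 with AMH (0.43). Among the differences from vehicle none passed for Egfr, and they ranged from -0.21 (AMH, 24 h; 95% interval -0.43 to 0.00) to +0.03 (doxorubicin, 24 h). Erbb2, the receptor with no known ligand of its own, kept group means between 19.8 and 26.1 FPKM. Erbb3, which has little kinase activity of its own and binds neuregulins, had group means from 10.6 to 17.0 FPKM and was more variable, from 6.93 to 19.0 FPKM within doxorubicin uteri at 24 h. Erbb2 differed from vehicle by +0.09 to +0.20 and Erbb3 by +0.01 to +0.37 over the 6 comparisons, and neither passed the test in these or any other comparison. The fourth receptor, Erbb4, is not a member and is given with the pathway lists.

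Among the inhibitors, Spry4 was 3.41, 4.45, 3.78, 3.79 and 3.72 FPKM with AMH at 4 h, against 6.40, 5.70, 4.15, 5.75 and 5.85 FPKM with vehicle. Vehicle replicate 3 fell inside the AMH range, and the difference was -0.44 ± 0.15 (limma adjusted p = 0.032). The call was lost when 8 of the 10 libraries were left out in turn, and without a filter on low genes (adjusted p = 0.064). Spry4 and Tgfa were the 2 members of 9 called with AMH at 4 h, where 20% of all genes were called. The Spry4 difference from vehicle at 4 h was -0.42 with doxorubicin and -0.42 with the combination, and neither passed (adjusted p = 0.21 and 0.15). At 24 h the AMH difference was +0.07 (adjusted p = 0.82), and its change from 4 h was +0.51 ± 0.21 (adjusted p = 0.34).

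Spry2 was steady, with group means of 21.2 to 26.2 FPKM. With AMH it was 22.1 to 23.3 FPKM at 24 h, against 25.1 to 27.2 FPKM at 4 h. These groups did not overlap, as for 3.18% of genes in this direction, and the difference of -0.19 ± 0.11 did not pass the test (limma adjusted p = 0.27). Lrig1 passed no test, with differences from vehicle of -0.46 (combination, 4 h) to +0.10 (doxorubicin, 4 h). At 24 h it was 11.3, 20.5, 40.3, 22.8 and 21.8 FPKM with AMH, against 40.2, 49.3, 16.5, 26.2 and 18.4 FPKM with vehicle. The groups overlapped widely. The 3 libraries above 40 FPKM (AMH replicate 3 and vehicle replicates 1 and 2) had oestrogen scores of 5.88, 6.59 and 7.39, among the 4 highest of all libraries. In 5 of 8 groups the library with the highest oestrogen score also had the highest Lrig1; the same was so for the macrophage and the T and NK cell scores. The part of the oestrogen-responsive state in these values was not tested.

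**Figure D3:**
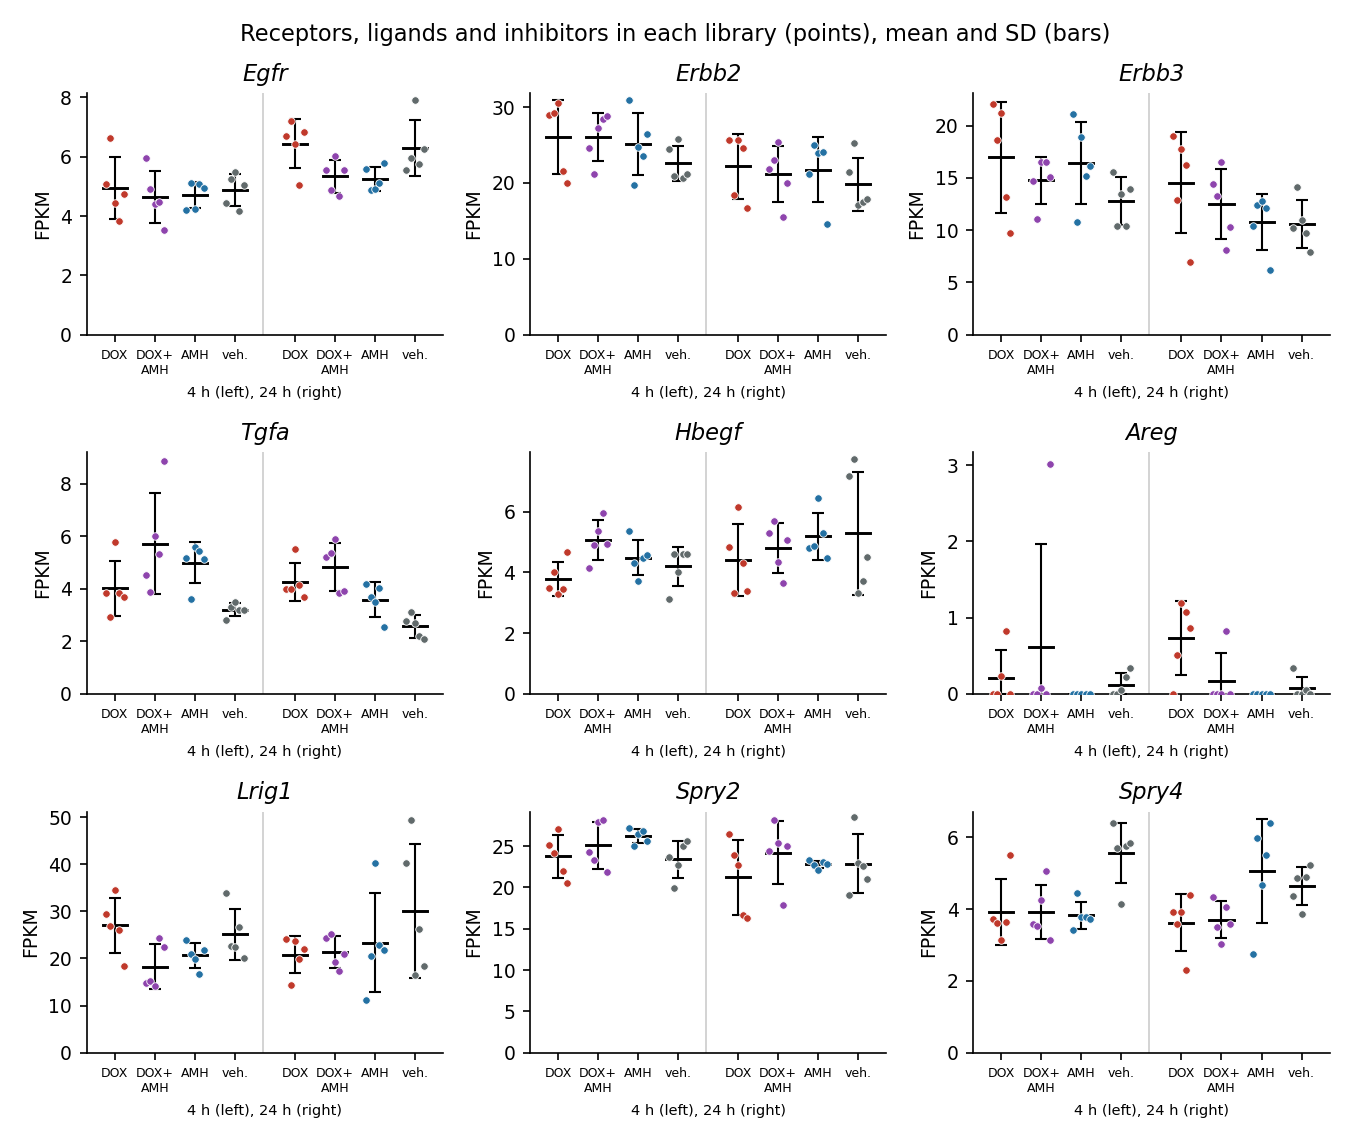
FPKM (vertical axes, linear from 0) of the 9 other members in each library (points), with group mean and SD (black bars; lower ends are held at 0), by treatment at 4 h (left of the grey line) and 24 h (right). Tgfa lies above vehicle in both doxorubicin groups at 24 h, Areg is at 0 in all AMH libraries, and Lrig1 is widest in vehicle at 24 h (16.5 to 49.3 FPKM).

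**Figure D4:**
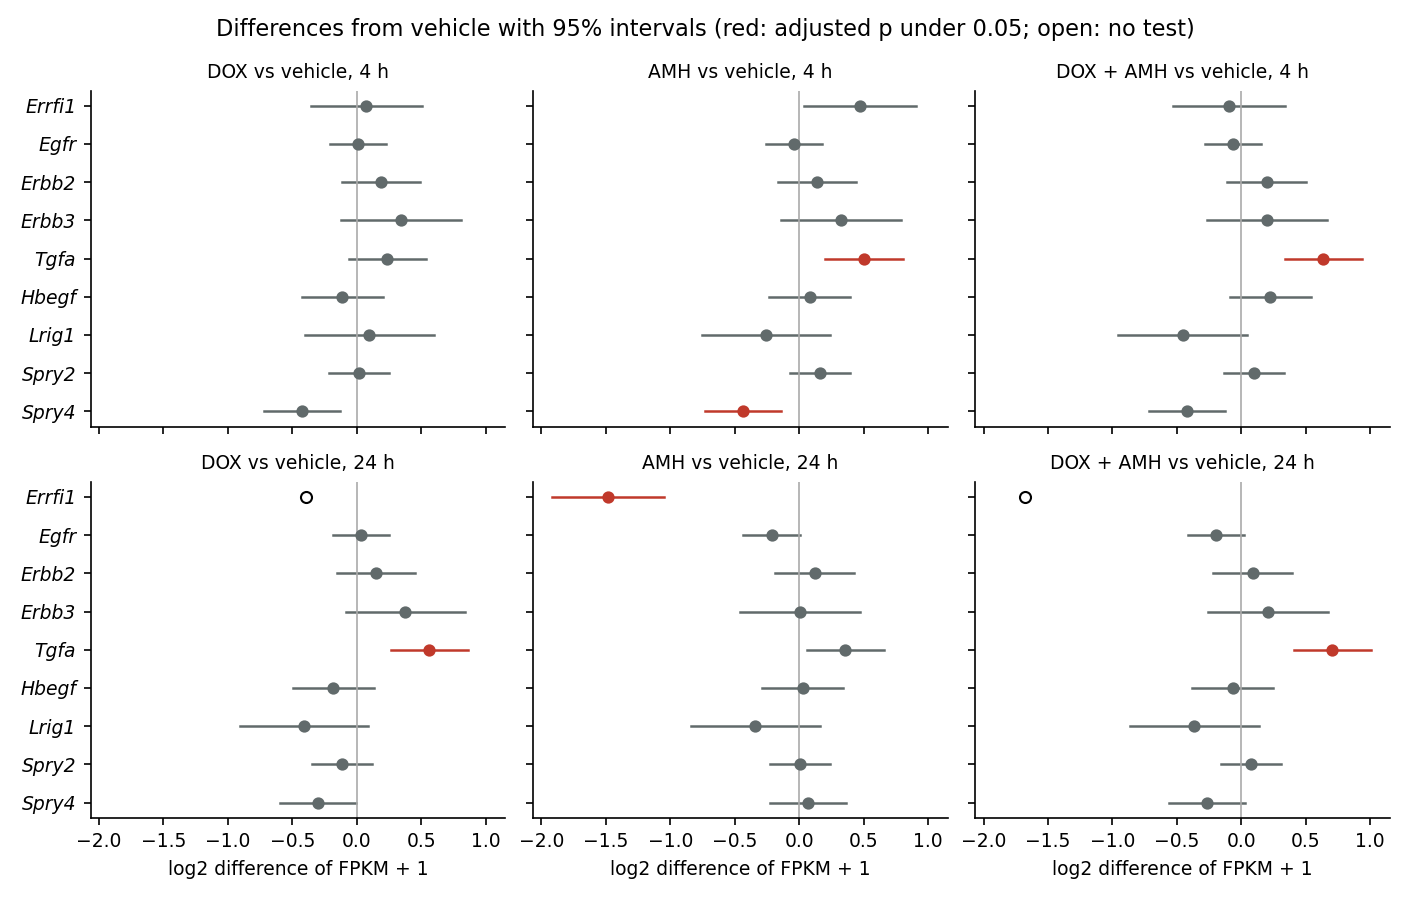
Differences from vehicle on the log2(FPKM + 1) scale (horizontal axes) for the 9 tested members, with 95% intervals, for doxorubicin, AMH and the combination at 4 h (top) and 24 h (bottom). Red marks a limma adjusted p under 0.05, and open circles are Errfi1 values given without a test; Errfi1 with AMH at 24 h (-1.48) is the furthest from 0 among the tested values.

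In the contrast that chose Errfi1, the combination against doxorubicin at 24 h, the other tested members had log2 differences from -0.23 (Egfr) to +0.19 (Spry2), given as a description. At 4 h the same contrast called 0 members by limma (3 at an unadjusted p under 0.05) and 0.00616% of all genes. Its differences there were -0.55 for Lrig1, +0.40 for Tgfa and +0.34 for Hbegf. The combination against AMH called 0 members at 4 h (1 unadjusted) and at 24 h (2 unadjusted), against 0.222% and 0.0986% of genes. The interaction of doxorubicin and AMH called 0 members at 4 h (2 unadjusted) and 0 at 24 h (0 unadjusted), where 0 of all genes passed at either time. The change of the doxorubicin difference from 4 h to 24 h called 0 members (0 unadjusted), against 0.0123% of genes. Between 24 h and 4 h, doxorubicin uteri (1.58% of genes called), combination uteri (0.074%) and AMH uteri (4.01%) called 0 of the members tested, with 1, 0 and 2 at an unadjusted p under 0.05. These were 8, 8 and 9 members, since Errfi1 was left untested in doxorubicin and in combination uteri, as it was in the interaction at 24 h, the combination against AMH at 24 h and the change of the doxorubicin difference. Weighting libraries by their quality in limma called members in several of these, and those counts are given with the processing.

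Other genes of the pathway came from 8 lists, of 93 genes in all, of which 72 besides the members were tested. With AMH at 4 h, 8 rose and 8 fell, 22.2% of the 72 against 20% of all genes. Ccnd1, the cyclin that drives G1 progression, differed by -1.10 on the log2 scale (limma adjusted p = 0.0054) and Map2k2, the kinase MEK2, by -0.53 (0.011). Erbb4, the neuregulin receptor, differed by +0.72 (0.0073) and Plcg1, phospholipase C gamma, by +0.55 (0.0099). Of 11 genes of the RAS-ERK cascade 5 fell and 0 rose, and of 16 adaptors and effectors 4 rose and 1 fell. With AMH at 24 h, 0 of the 72 were called by limma (15 at an unadjusted p under 0.05) and 0 by voom on the rebuilt reads. Of 11 EGF family ligands listed, 5 were abundant enough to be tested, and of 4 ERBB receptors all were.

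With doxorubicin at 24 h, 3 rose and 6 fell (12.5%, against 18.4% of all genes); scaled to total reads, 6 rose and 2 fell. Socs5, an adaptor that promotes EGFR degradation, differed by -0.53 (limma adjusted p = 0.0065), the phosphatase Ptpn1 by -0.51 (0.009), the ephrin receptor Epha4 by +0.49 (0.01) and the docking protein Gab1 by +0.53 (0.019). With the combination at 24 h, 8 rose and 24 fell (44.4%, against 34.3%), or 11 and 9 scaled to total reads. Epha4 differed by +0.64 (0.00064), Spsb1 by -1.09 (0.00074), Ptpn1 by -0.63 (0.00085) and the phosphatase Ptpn12 by -0.40 (0.0014). Cell type markers also differed from vehicle at 24 h. Of 9 smooth muscle markers 8 were lower with the combination and 9 with doxorubicin (5 and 8 scaled to total reads), with scores of 6.83 to 7.09 and 6.45 to 7.15, against 7.48 to 7.96 with vehicle. Of 8 blood endothelium markers 6 were higher with the combination and 2 with doxorubicin (8 and 5 scaled to total reads). Of 11 uterine epithelium markers 5 were lower and 1 higher with the combination (3 and 1 scaled to total reads), and 7 of 12 oestrogen-responsive genes were lower at both scalings. The part of these shifts in the pathway counts and in the Tgfa differences was not tested. The direction of the pathway as a whole at 24 h turned with the scaling, whereas the calls for Errfi1 (AMH, 24 h) and Tgfa did not change with it.

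Between 24 h and 4 h in vehicle uteri, 9 of the 72 rose and 0 fell (12.5%, against 7.32% of all genes), and 5 rose and 3 fell scaled to total reads. Spsb1 differed by +1.35 (limma adjusted p = 0.00017), Phlda1 by +0.61 (0.003), Gab2 by +0.42 (0.0077) and Ptpn1 by +0.53 (0.01). In AMH uteri 5 rose and 1 fell (8.33%, against 4.01%), with Phlda1 (+0.52, adjusted p = 0.027) and Hras (+0.65, 0.036) among them. In doxorubicin uteri 2 rose, Gab2 (+0.49, 0.007) and Nf1 (+0.37, 0.0078), which is 2.78% of the 72 against 1.58% of all genes. In the other 10 comparisons tested, 0 of the 72 were called by limma (0 to 10 at an unadjusted p under 0.05) and 0 by voom.

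The genes whose levels followed Errfi1 most closely over the 40 libraries, by Pearson's r of log2(FPKM + 1) among protein-coding genes, were Tiparp (r = 0.92, rho = 0.82), Tcf23 (0.87, 0.80), 1700017B05Rik (0.86, 0.85), Spsb1 (0.84, 0.79) and Rasd1 (0.83, 0.84). Without the 2 libraries furthest from the Errfi1 median, r was 0.90 for Tiparp and 0.82 to 0.86 for the others. These values describe libraries that share treatment groups and depth. With group means removed, Tiparp was again the closest (r = 0.78), followed by Socs7, Cited4, Pfkfb3 and Rhou (0.68 to 0.75). Tiparp, Tcf23, 1700017B05Rik, Spsb1 and Rasd1 were picked for following Errfi1 over libraries that include those compared here. Their differences are therefore given here as a description only. Spsb1 is also a gene of the pathway lists, and its tests given with those lists use the same libraries. Tiparp is an ADP-ribosyltransferase induced by the aryl hydrocarbon receptor. It was 6.73 to 8.94 FPKM with AMH at 24 h, against 13.2 to 24.0 FPKM with vehicle (-0.91 ± 0.18). In vehicle uteri it rose by 1.31 between 4 h and 24 h. The AMH difference at 24 h was -0.47 for 1700017B05Rik and -0.80 for Tcf23. It was -0.80 for Spsb1, whose protein is an adaptor of a ubiquitin ligase, and -0.78 for the RAS-like Rasd1.

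**Figure D5:**
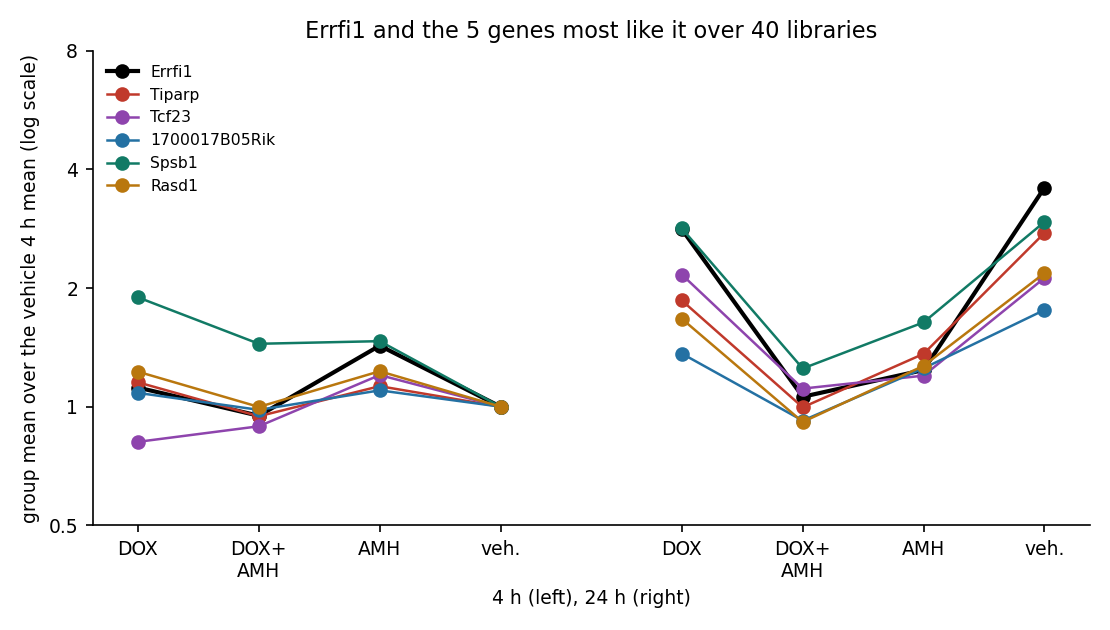
Group means of Errfi1 and of the 5 genes closest to it over the 40 libraries, each divided by its own vehicle mean at 4 h (vertical axis, log scale), by treatment at 4 h (left) and 24 h (right). All 6 genes have their highest or second highest group mean with vehicle at 24 h; Errfi1 averages 54.4 FPKM and Tiparp 16.7 FPKM there.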

How the data were processed

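The authors deposited gene-level FPKM, linear and per library, with gene identifiers, positions and lengths on build mm10, per the file headers and the submitters' processing notes; RNA extraction used a Qiagen kit, per the labels' protocols. Aligner and counter were not given in the sources used here. Multiplied by gene length, the deposited FPKM of a library were whole multiples of 1 step for 100% of values (tolerance 0.01), which gave reads per gene. Median-of-ratios factors of the deposited values were 1.0043 in every library, so they were already on that scale. The 16226 genes that reached 1 FPKM in 5 libraries or more were tested with limma 3.58.1 (trend, R 4.3.3) on log2(FPKM + 1), with the 8 groups in 1 fit (32 residual degrees of freedom) and Benjamini-Hochberg adjustment over all genes in each of 18 comparisons at 0.05; fold changes on this scale understate changes of low genes. Intervals are 95% and cover the spread between libraries. The script was tested on simulated data. No 2 libraries of a group agreed within sampling noise. Same-numbered libraries had a median r of deviations of 0.019 over 60 pairs, against -0.007 for other pairs. The spread was wide, from -0.715 to 0.388, with 18 of the 60 above 0.1. Replicate numbers were not used as pairs in the main fit, and a replicate block was run as an alternative.

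Members and lists were chosen with earlier results of these data known. Named genes were all members, up to 4 called pathway genes with the smallest p per comparison, and the 5 genes closest to Errfi1 by each of 2 correlations; Zbtb16, Cebpd, Per1 and Tsc22d3 were named beside counts after their values were seen. Alternatives were another pseudocount (0.1), other filters, voom on the rebuilt reads, library weights, only the groups compared, a replicate block and leaving out each library; total-read scaling and leaving out libraries high in oviduct or oestrogen-responsive genes were added after seeing the data. Promoter windows came from RefSeq (GRCm38.p6).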

Additional observations from a re-analysis of the deposited data

Results flagged for a closer look

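In 78 sets of 5 libraries (a member in a group), 8 had a library whose gap to the nearest other exceeded 0.71 of the range. For normally distributed values chance alone gives about 1 in 20. That rate does not apply to Areg, which was at 0 in most libraries. For Errfi1 this was doxorubicin replicate 3 at 4 h (29.95 FPKM, others 11.8 to 16.6), which was also high in oviduct genes (score 3.37) and had the highest glucocorticoid score of its group (3.39); their part was not tested. For Tgfa it was replicate 2 of AMH at 4 h (3.62 FPKM, others 5.11 to 5.59) and replicate 3 of doxorubicin at 24 h (5.50 FPKM, others 3.69 to 4.13). For Spry4 it was replicate 5 of doxorubicin at 4 h (5.51 FPKM, others 3.13 to 3.71). The remaining 4 were Areg values: 0.823 FPKM (doxorubicin replicate 4, 4 h), 3.01 FPKM (combination replicate 5, 4 h), 0.822 FPKM (combination replicate 4, 24 h) and 0.337 FPKM (vehicle replicate 1, 24 h), of which the first 3 are libraries high in oviduct genes.

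The AMH difference for Errfi1 changed between the times by -1.96 (log2, 24 h minus 4 h; limma adjusted p = 0.0015), lower than vehicle in all 5 AMH libraries at 24 h and higher in all 5 at 4 h.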

How the results depend on the processing

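The Errfi1 calls with AMH at 24 h, between times in vehicle and for the change of the AMH difference held in every alternative run and with each library left out (adjusted p at most 0.049). The replicate block changed no call of a member; with it the Errfi1 difference for AMH at 24 h was -1.48 (adjusted p = 0.0037). Counts of members called that moved by more than 1.5 times were as follows, and the cause was not tested. With library weights they were 1 for doxorubicin and 3 for the combination, each against vehicle at 4 h, 1 for the combination against AMH at 4 h and 1 at 24 h, 1 for the interaction at 4 h, and 1 in doxorubicin and 3 in AMH uteri between times. For AMH against vehicle at 4 h the count of 2 was 1 without the filter and 1 without the libraries high in oestrogen-responsive genes; it was 3, with Errfi1 added, with only the groups compared, with library weights and without the high-oviduct libraries. For the combination against vehicle at 4 h it was 0 without the filter, with only the groups compared, and without either kind of high library. For doxorubicin against vehicle at 24 h it was 0 with only the groups compared and 0 without the high-oestrogen libraries, which also gave 0 for the combination against vehicle at 24 h. Without the high-oviduct libraries it was 2 between times in vehicle and 1 in AMH uteri. Leaving out 1 library gave 1 to 2 for AMH at 4 h, 0 to 1 for the combination at 4 h, 0 to 2 for doxorubicin against vehicle at 24 h, 0 to 1 for the combination against AMH at 24 h, and 0 to 1 between times in doxorubicin and in AMH uteri. Total-read scaling moved the median of all genes by 0.113 for the combination against vehicle at 24 h, where 3847 genes were then higher and 1672 lower, against 2555 and 3011 as deposited; it changed no member call. For doxorubicin against vehicle at 24 h the median moved by 0.105 and the split was 2279 higher and 646 lower, against 1369 and 1615. Counts of all genes called also depended on the fit. With only the groups compared, doxorubicin against vehicle at 24 h called 25 genes, not 2984, and the combination 1019, not 5566. AMH against vehicle called 3 at 24 h, not 75, but 5885 at 4 h, not 3250. Vehicle uteri between times called 95, not 1188. Without the high-oestrogen libraries, doxorubicin at 24 h called 66 and the combination 121. Areg, with 72 reads at most in a library, was below what these tests can compare.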
